A study of Gallus gallus with 32 samples.

Results

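The 7 genes described here, GTSF1, WAPL, YES1, DYNC2H1, NEFL, SELE and CYR61, lie on autosomes and were selected on the difference between male and female birds in these same arrays. Each was measured by 1 probe set, so the 7 genes were 7 of the 17894 probe sets with values and 7 of the 9680 genes named by a probe set with a single gene symbol. GTSF1, WAPL, YES1 and DYNC2H1 had the higher signal in females, by 1.46-fold to 1.80-fold, and NEFL, SELE and CYR61 had the higher signal in males, by 1.80-fold to 1.81-fold. Because the sex difference chose the genes, it is given below as a description with its standard error (SE) and with no test. Diet entered the choice only in that the sex difference had the same sign on both diets. The order of the birds, the likeness between genes, the pathway partners and the chromosomal neighbours were not used. Bird order was not balanced between the sexes, however, so it is not independent of the choice.

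Blood of 32 chickens of a broiler breed, labelled as whole blood cells, was profiled with 1 expression array per bird. The birds formed 4 groups of 8: females on a standard control diet, males on that diet, females on the standard diet supplemented with comfrey, and males on the supplemented diet. The age label reads 32 months for all birds, which is unusual for broilers, and the labels name no strain and no dose of comfrey. RNA came from ground, frozen blood clots, so it includes the red cells, thrombocytes and white cells of the clot, and fewer cells of a type and less RNA per cell cannot be told apart. Values are on the log2 signal scale, on which a difference of 1 is a doubling, and the probe sets had a median mean signal of 6.55.

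The birds' recorded sex matched the female-specific W chromosome. HINTW, a W-linked gene, had a signal of 12.28 ± 0.23 (SD, n = 16) in females with no bird under 11.65, and 5.21 ± 0.20 (SD, n = 16) in males with no bird over 5.54. The globins HBAD at 13.87 ± 0.08 and HBA1 at 13.67 ± 0.07, and the red cell enzyme CA2 at 12.91 ± 0.25 (SD, n = 32), were among the strongest signals, and they mark the nucleated red cells of bird blood. Over all probe sets, 958 of 17894 differed between the sexes with diet held in limma at a Benjamini-Hochberg adjusted p under 0.05, which is 5.35%. Of these, 631 (3.53%) were higher and 327 (1.83%) lower in males, and the median difference over all probe sets was -0.02.

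In birds the male is ZZ and the female ZW, so genes on those chromosomes differ in copy number between the sexes. The 7 genes are elsewhere, and their products act in unrelated processes. GTSF1 is a zinc finger protein that mouse germ cells need for silencing of transposons guided by small PIWI-interacting RNAs (piRNAs). WAPL releases the cohesin ring from chromatin, YES1 is a Src family tyrosine kinase, and DYNC2H1 is the heavy chain of dynein-2, the motor that carries cargo back along the cilium. NEFL is the light chain of the neurofilaments, SELE is E-selectin, an adhesion receptor known from activated endothelium, and CYR61, also named CCN1, is a secreted protein of the extracellular matrix. Chicken thrombocytes are nucleated blood cells with the clotting role that platelets have in mammals.

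The genes came from both ends of the ranking of autosomal sex differences among probe sets past the threshold. NEFL, SELE and CYR61 held places 4 to 6 of 178 probe sets with higher signal in males, behind GSTK1 at 0.96, HTR2A at 0.89 and XCL1 at 0.87, and just ahead of WDFY2 at 0.81. GTSF1, DYNC2H1, WAPL and YES1 held places 3 to 6 of 110 probe sets with lower signal in males, behind SLC20A1 at -1.07 and XK at -0.94, and just ahead of TDRD5 at -0.54. DYNC2H1, whose birds varied most among the 4 genes higher in females relative to its difference, was the last of these 110 inside the threshold, and NOM1, with a male minus female difference of -0.22, was the first outside it. Among the probe sets higher in males, ALAS1 at 0.19 was the last inside and DRAM2 at 0.38 the first outside.

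GTSF1, on chromosome 27, had the largest difference of the 4 genes higher in females. Its signal had a lowest value, median and highest value of 5.41, 6.36 and 7.29 in control females and 5.08, 5.25 and 5.85 in control males. On comfrey these were 5.63, 6.22 and 7.21 in females and 5.00, 5.35 and 6.10 in males. The sexes overlapped on both diets, yet 10 of 16 females lay above every male and 10 of 16 males lay below every female. The male minus female difference was -0.85 ± 0.16 (SE) over both diets, -0.95 on control and -0.74 on comfrey, each ± 0.23. A female had the higher signal in 91.4% of the 256 pairs of a male and a female.

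WAPL, on chromosome 6, had the smallest SE of the 7 genes. Its lowest, median and highest signals were 8.22, 8.59 and 8.82 in control females and 7.77, 8.06 and 8.59 in control males, where bird 13 was the highest male and the next male stood at 8.33. On comfrey they were 8.44, 8.55 and 8.88 in females and 7.55, 8.09 and 8.33 in males. The sexes thus overlapped on the control diet and did not overlap on comfrey. These same values chose the gene, and no share of non-overlap over all probe sets is given. The difference was -0.55 ± 0.09 (SE), with -0.47 on control and -0.63 on comfrey, each ± 0.13, and the female was higher in 94.1% of the pairs. The sex difference on comfrey minus that on control was -0.16 ± 0.18 (SE), with a limma adjusted p of 0.932.

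YES1, on chromosome 2, overlapped on both diets. Its lowest, median and highest signals were 6.11, 6.58 and 6.99 in control females, 5.61, 5.89 and 6.41 in control males, 5.51, 6.39 and 7.26 in comfrey females and 5.21, 5.82 and 6.49 in comfrey males. Comfrey females had the widest spread, with an SD of 0.57 against 0.28 in control females. The difference was -0.54 ± 0.14 (SE), with -0.59 on control and -0.50 on comfrey, each ± 0.20. The female was higher in 84.8% of the pairs, and only 1 male lay below every female.

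DYNC2H1, on chromosome 1, had the lowest share of pairs in the female-higher order among the 4. Its lowest, median and highest signals were 4.84, 5.70 and 7.06 in control females, 4.18, 5.17 and 6.03 in control males, 5.16, 5.88 and 6.55 in comfrey females and 4.41, 5.49 and 5.80 in comfrey males. Its difference was -0.58 ± 0.18 (SE), with -0.62 on control and -0.54 on comfrey, each ± 0.26. The female was higher in 79.7% of the pairs, and 12 of 16 males lay within the range of the females. The single control female 23, at 7.06, stood well above the next bird of its group at 6.04, and without it the difference was -0.49.

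**Figure D1:**
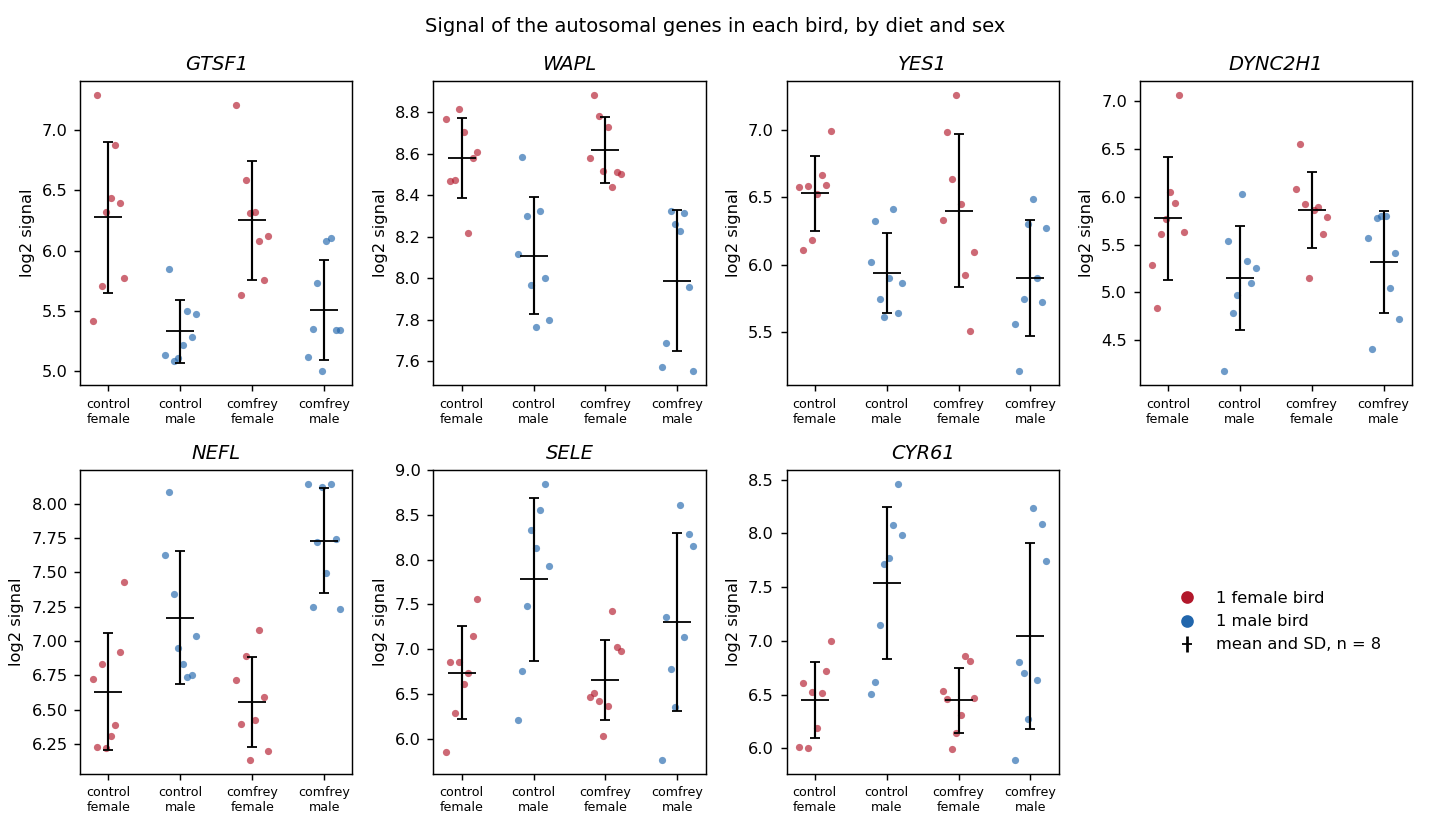
Each panel plots the log2 signal of 1 gene (vertical axis) in the 4 groups of 8 birds (horizontal axis), with 1 point per bird and the mean with its SD as the cross and bar. GTSF1, WAPL, YES1 and DYNC2H1 are lower in males and NEFL, SELE and CYR61 higher, and the male points of SELE reach from 5.77 to 8.85 while the female points end at 7.56.

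NEFL, on chromosome 22, had the smallest SE of the 3 genes higher in males. Its lowest, median and highest signals were 6.22, 6.55 and 7.43 in control females and 6.74, 6.99 and 8.09 in control males, which overlapped. On comfrey they were 6.13, 6.51 and 7.08 in females and 7.23, 7.73 and 8.15 in males, which did not overlap. As for WAPL, these values chose the gene, and no share over all probe sets is given. The difference was 0.86 ± 0.15 (SE), with 0.54 on control and 1.18 on comfrey, each ± 0.20. The male was higher in 91.4% of the pairs, 8 of 16 males lay above every female, and 11 of 16 females lay below every male.

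SELE, on chromosome 8, was marked by a wide spread among males. Its lowest, median and highest signals were 5.85, 6.80 and 7.56 in control females, 6.21, 8.03 and 8.85 in control males, 6.03, 6.49 and 7.43 in comfrey females and 5.77, 7.25 and 8.61 in comfrey males. The 16 males had an SD of 0.95 against 0.47 in the 16 females, so that 8 males lay above every female while 7 lay within the female range and 1 below it. The difference was 0.84 ± 0.25 (SE), with 1.04 on control and 0.65 on comfrey, each ± 0.36. Bird numbers were uneven between the sexes on control, as given below. The male was higher in 75.4% of the pairs, the lowest share of the 7 genes.

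CYR61, also on chromosome 8, had the same shape. Its lowest, median and highest signals were 6.00, 6.52 and 7.00 in control females, 6.51, 7.75 and 8.46 in control males, 5.99, 6.46 and 6.86 in comfrey females and 5.89, 6.75 and 8.23 in comfrey males. The SD was 0.80 in males and 0.32 in females, a ratio of 2.54, and 9 males lay above every female while 1 lay below every female. The difference was 0.84 ± 0.21 (SE), with 1.09 on control and 0.60 on comfrey, each ± 0.29. The male was higher in 80.5% of the pairs.

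Placing the 4 groups in order of their mean shows which steps exceed the spread between birds. The genes were chosen for a sex difference, so a wide gap between the sexes was favoured in advance. For GTSF1 and WAPL the only gap wider than the larger SD of its neighbouring groups was the gap between the sexes. NEFL had such gaps between control females at 6.63 ± 0.42 and control males at 7.17 ± 0.48, and between those and comfrey males at 7.73 ± 0.38 (SD, n = 8). For YES1, DYNC2H1, SELE and CYR61 no gap between neighbouring groups was wider than that SD.

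None of the 7 genes passed the test for diet. Over both sexes, with sex held, the comfrey minus control differences ran from -0.28 for SELE to 0.24 for NEFL, with limma adjusted p from 0.655 to 0.893. No member had an unadjusted p under 0.05 in that comparison, and 0 of the 17894 probe sets (0%) were called, although 1429 had an unadjusted p under 0.05. The 95% interval of the difference was narrowest for WAPL, from -0.22 to 0.14, and widest for SELE, from -0.80 to 0.24.

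Within females the differences between diets were small, from -0.13 for YES1 to 0.08 for DYNC2H1, with limma adjusted p from 0.998 to 1.000. None had an unadjusted p under 0.05, against 704 of all probe sets, of which 1 was called (0.00559%). CYR61 had nearly the same mean in control females, 6.446, as in comfrey females, 6.447, with a 95% interval of the difference from -0.59 to 0.59.

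Within males NEFL was the 1 member with an unadjusted p under 0.05 for diet. Its comfrey minus control difference was 0.56 ± 0.20 (SE), with a 95% interval from 0.16 to 0.96 and an unadjusted limma p of 0.00786, but an adjusted p of 0.417. SELE at -0.47 ± 0.36 and CYR61 at -0.49 ± 0.29 (SE) were near NEFL in size and opposite in sign. Of the control males, 2 were numbered 1 to 16 and 6 were numbered 17 to 32, against 4 and 4 of the comfrey males. The reverse held for the control females. The diet differences within each sex are therefore mixed with bird number, which is described below. No probe set was called in males (0%), while 1850 of the 17894 had an unadjusted p under 0.05, so such a p was common in this comparison.

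The sex difference itself was compared between diets by the interaction of diet and sex. NEFL had the largest value, with a sex difference 0.64 ± 0.28 (SE) greater on comfrey than on control, at an unadjusted limma p of 0.0293 and an adjusted p of 0.861. The other 6 genes ran from -0.49 for CYR61 to 0.20 for GTSF1, and none had an unadjusted p under 0.05. Of all probe sets 0 (0%) were called and 1020 had an unadjusted p under 0.05. The same-sign condition used in choosing the genes limits this contrast. So do the bird numbers, which were uneven between the sexes on control and even on comfrey.

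**Figure D2:**
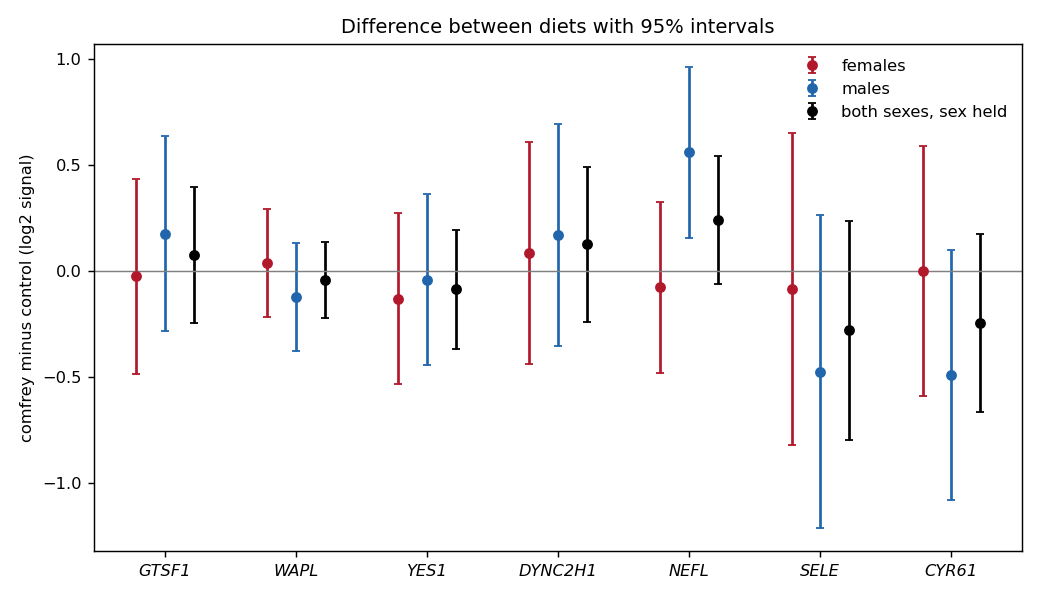
Points give the comfrey minus control difference in log2 signal (vertical axis) for each of the 7 genes (horizontal axis) in females, in males and in both sexes with sex held, and bars are 95% intervals. The interval of NEFL in males runs from 0.16 to 0.96, and the intervals of the other 6 genes in males include 0.

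The 7 genes did not move as 1 block between birds. After the mean of each diet and sex group was taken away, 1 of the 21 pairs of genes had a Pearson r over 0.5 in size across the 32 birds, and the other pairs ran from -0.44 to 0.35. That pair was SELE and CYR61, with r = 0.95 and a Spearman rho of 0.95, and r = 0.94 without the 2 birds farthest from the median of SELE. It was 0.90 in females and 0.97 in males. These correlations are descriptions over birds, and differences between birds in the clot's mix of cells or in array handling were not tested.

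NEFL did not share that course. In males its r with SELE was -0.78 and with CYR61 -0.75, so the males with the highest NEFL tended to have lower SELE and CYR61. In females the values were 0.41 and 0.34. Over both sexes, the r of NEFL with SELE was -0.73 in birds 1 to 16 and -0.18 in birds 17 to 32. With CYR61 it was -0.77 and -0.26. The group means taken away were those over all 32 birds. Group differences that change between birds 1 to 16 and birds 17 to 32 therefore enter these 4 values. The 4 genes higher in females had r from 0.05 to 0.35 with each other over both sexes. In females alone these pairs ran from -0.33 for GTSF1 and WAPL to 0.24 for WAPL and YES1. In males alone they ran from 0.22 for GTSF1 and DYNC2H1 to 0.54 for GTSF1 and WAPL.

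The genes most like each member in this within-group measure were ranked over 9679 other genes. For SELE they were CHN2, a Rac-directed GTPase activator, PLEK, the platelet protein pleckstrin, and ASAP2, an Arf-directed GTPase activator, with r of 0.98, 0.97 and 0.97. For CYR61 they were PDLIM1, an actin-associated scaffold, SSFA2 and SELE itself, with r of 0.96, 0.96 and 0.95. SELE had 63 genes with r over 0.9 and CYR61 had 43.

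The other 5 members had no gene with r over 0.9. The most alike genes were TXNDC17, PRPF4B and WDR4 for GTSF1 (r from 0.63 to 0.64), DNAJB11, SPG20 and FAM214A for WAPL (0.67 to 0.69), RBM48, MPDZ and ATP13A3 for YES1 (0.65 to 0.71) and PPA1, PPP1R3D and KBTBD3 for DYNC2H1 (0.67 to 0.73). For NEFL they were RTN4, a shaper of the endoplasmic reticulum, TMEM43 and POR (0.64 to 0.68). Of these 15 genes only RTN4 was itself called for sex in limma, with a male minus female difference of 0.36 ± 0.08 (SE) and an adjusted p of 0.00599.

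SELE and CYR61 moved with markers of thrombocytes. Of 20 listed thrombocyte markers 11 were measured, and 6 of them had a within-group r with SELE from 0.58 to 0.97 over the 32 birds. GP9 and GP1BB, parts of the receptor for von Willebrand factor, had r of 0.97 and 0.91, ITGB3, a subunit of the fibrinogen receptor, 0.93, the beta tubulin TUBB1 0.95 and the clotting factor F13A1 0.94. The other 5 markers, such as THBS1 and GFI1B, had r from -0.24 to 0.33.

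The mean of the 11 thrombocyte markers had r = 0.93 with SELE and 0.90 with CYR61, and it ran from -0.39 for NEFL to 0.13 for GTSF1 with the other 5 genes. In males its r with NEFL was -0.77, against 0.26 in females. The marker means of other blood cells were less like SELE, with r = 0.54 for T cells, 0.45 for monocytes, 0.36 for heterophils, 0.29 for B cells and -0.35 for red cells. With CYR61 they had r of 0.48, 0.45, 0.38, 0.34 and -0.37 in that order. Single markers within these lists differed widely in their r with SELE. T cell markers ran from -0.37 for CD5 to 0.71 for CCR7. Monocyte markers ran from -0.44 for LGALS3 to 0.77 for TLR4, and B cell markers from -0.49 for TNFRSF13C to 0.81 for BTK. Over all marker lists the other 5 genes had r from -0.51, for GTSF1 with fibroblast and vessel wall markers, to 0.29, for DYNC2H1 with T cells. With monocyte markers YES1 was at -0.50, WAPL and NEFL at -0.41, DYNC2H1 at -0.21 and GTSF1 at -0.16. The thrombocyte marker mean was 7.27 ± 0.29 (SD, n = 16) in females, from 6.73 to 7.67, and 7.60 ± 0.44 (SD, n = 16) in males, from 6.64 to 8.10. The sexes thus overlapped, but the male median of 7.73 lay above the highest female. Of the 11 markers 8 had a positive male minus female difference with a list median of 0.13, and 2 were called in limma: ITGB3 at 0.74 ± 0.22 (SE, adjusted p 0.0418) and GP1BB at 0.49 ± 0.15 (SE, adjusted p 0.0385). ITGB3 lost its call in 22 and GP1BB in 21 of 41 alternative settings, among them the block of bird numbers described below. GP9 had a larger difference, 0.88 ± 0.35 (SE), but did not pass, at an adjusted p of 0.176.

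**Figure D3:**
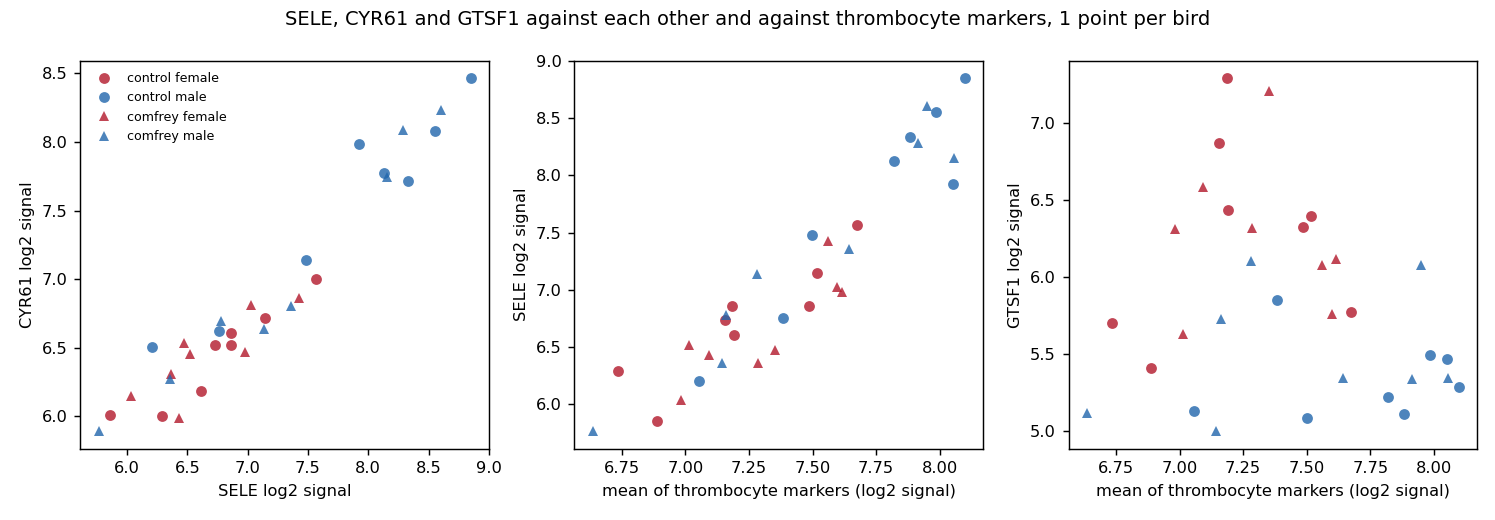
Each point is 1 bird, coloured by sex and shaped by diet; the panels set the log2 signal of CYR61 against SELE, of SELE against the mean of 11 thrombocyte markers, and of GTSF1 against that mean. SELE and CYR61 rise together (within-group r = 0.95), SELE follows the marker mean (0.93), and GTSF1 does not (0.13).

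With the thrombocyte marker mean held as a covariate, the differences of SELE and CYR61 between the sexes were smaller and those of the other genes were of like size. SELE was at 0.24 ± 0.11 (SE), which is 28.6% of its value without the covariate, and CYR61 at 0.37 ± 0.10, which is 43.3%. NEFL was at 1.02 ± 0.15, GTSF1 at -0.89 ± 0.18, WAPL at -0.51 ± 0.10, YES1 at -0.49 ± 0.15 and DYNC2H1 at -0.62 ± 0.20. This covariate was added after the values by bird had been seen, and the marker mean itself differs between the sexes.

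The numbers of the birds in the sample titles also moved with SELE and CYR61. Birds 1 to 16 held 10 females and 6 males, and birds 17 to 32 held 6 females and 10 males. The control group was uneven, with 6 females and 2 males in birds 1 to 16 and the reverse in birds 17 to 32, while comfrey had 4 of each sex in both. The sex differences on control are therefore mixed with bird number. This holds for the larger differences of SELE and CYR61 on control than on comfrey. The labels do not say what the number stands for.

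With sex and diet held, SELE was 1.11 ± 0.18 (SE) higher in birds 17 to 32 than in birds 1 to 16, with a limma adjusted p of 0.000258, and CYR61 was 0.86 ± 0.15 higher, with an adjusted p of 0.00073. The other 5 genes ran from -0.15 for NEFL to 0.15 for DYNC2H1, with adjusted p from 0.611 to 0.763. Over all probe sets 522 were called in this comparison, or 2.92%. The comparison was made after the values had been seen. The sexes were uneven between these sets of birds, so choosing the genes by sex could favour genes that differ between the sets. The thrombocyte marker mean was 7.13 ± 0.26 in birds 1 to 16 and 7.74 ± 0.27 in birds 17 to 32 (SD, n = 16). Marker means of white cells were higher in birds 17 to 32 as well, by less: T cell markers at 7.50 ± 0.14 and 7.71 ± 0.18, heterophil markers at 7.46 ± 0.25 and 7.67 ± 0.12, and monocyte markers at 6.96 ± 0.15 and 7.14 ± 0.15. B cell markers were at 7.19 ± 0.06 and 7.21 ± 0.20, and red cell markers at 10.80 ± 0.13 and 10.71 ± 0.20. These differences of list means were not tested.

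In birds 1 to 16 the sexes were close in SELE. The females had a lowest, median and highest signal of 5.85, 6.49 and 6.86, and the males 5.77, 6.56 and 7.36, a difference of 0.09 ± 0.22 (SE). In birds 17 to 32 the females had 6.36, 7.09 and 7.56 and the males 7.14, 8.22 and 8.85, a difference of 0.99 ± 0.24. All 8 males with SELE above every female were numbered 17 or higher.

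CYR61 followed the same course, with females of birds 1 to 16 at 5.99, 6.32 and 6.61 and males at 5.89, 6.56 and 6.80 (lowest, median, highest), a difference of 0.19 ± 0.15 (SE). In birds 17 to 32 the females had 6.31, 6.76 and 7.00 and the males 6.64, 7.88 and 8.46, a difference of 1.04 ± 0.23. The change in the sex difference from birds 1 to 16 to birds 17 to 32 was tested as an interaction, and 0 of the 17894 probe sets (0%) were called. For CYR61 it was 0.85 ± 0.28 (SE) with an unadjusted limma p of 0.00468 and an adjusted p of 0.737, and for SELE 0.90 ± 0.33 with 0.0108 and 0.818.

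NEFL had the opposite order, with a sex difference of 1.33 ± 0.16 (SE) in birds 1 to 16 and 0.52 ± 0.23 in birds 17 to 32. In birds 1 to 16 its males, from 7.25 to 8.15, did not overlap its females, from 6.13 to 6.89, and in birds 17 to 32 the sexes overlapped, with males from 6.74 to 8.14 and females from 6.20 to 7.43. No share of non-overlap over all probe sets is given for these sets of birds either. The interaction was -0.81 ± 0.29, with an unadjusted limma p of 0.00788 and an adjusted p of 0.791. The 4 genes higher in females were lower in males among both sets of birds. In birds 1 to 16 and birds 17 to 32, GTSF1 was at -1.01 and -0.55 and WAPL at -0.51 and -0.55. YES1 was at -0.74 and -0.34 and DYNC2H1 at -0.62 and -0.78. These genes were chosen by the sex difference over both sets of birds together. The same direction in each set was therefore favoured in advance and is no independent repeat. The unadjusted limma p of the interaction was over 0.05 for each of the 4 genes.

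**Figure D4:**
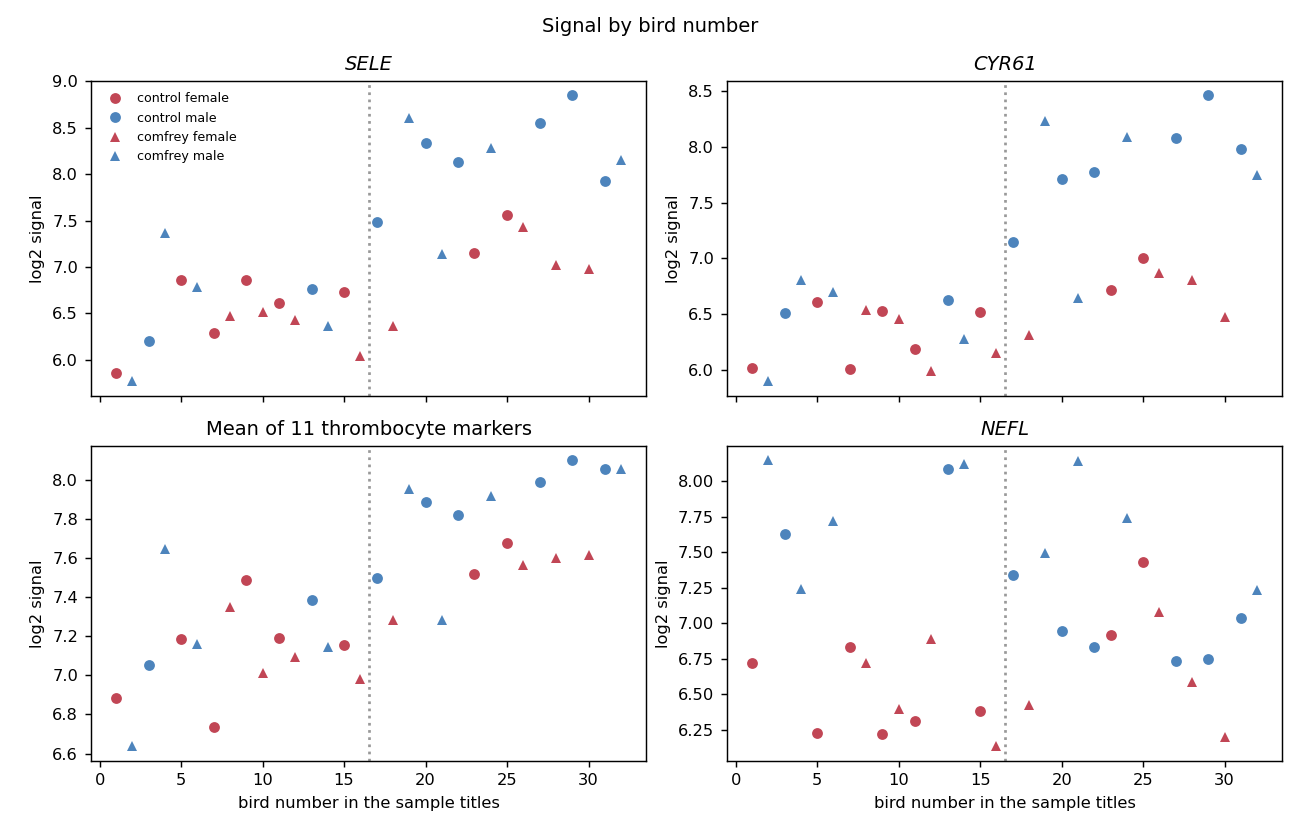
Log2 signal (vertical axis) of SELE, CYR61, the mean of 11 thrombocyte markers and NEFL against the bird number in the titles (horizontal axis), with 1 point per bird coloured by sex and shaped by diet; the dotted line parts birds 1 to 16 from birds 17 to 32. Males of birds 17 to 32 reach 8.85 in SELE and 8.46 in CYR61, whereas males of birds 1 to 16 end at 7.36 and 6.80.

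With the split of the birds at 16 held as a block, the sex difference was 0.57 ± 0.18 (SE) for SELE, 67.1% of its value without the block, and 0.63 ± 0.15 for CYR61, 74.6%. NEFL was at 0.90, GTSF1 at -0.82, WAPL at -0.54, YES1 at -0.51 and DYNC2H1 at -0.62. Sex, bird number and thrombocyte markers moved together in SELE and CYR61, and which of them the difference belongs to was not tested.

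**Figure D5:**
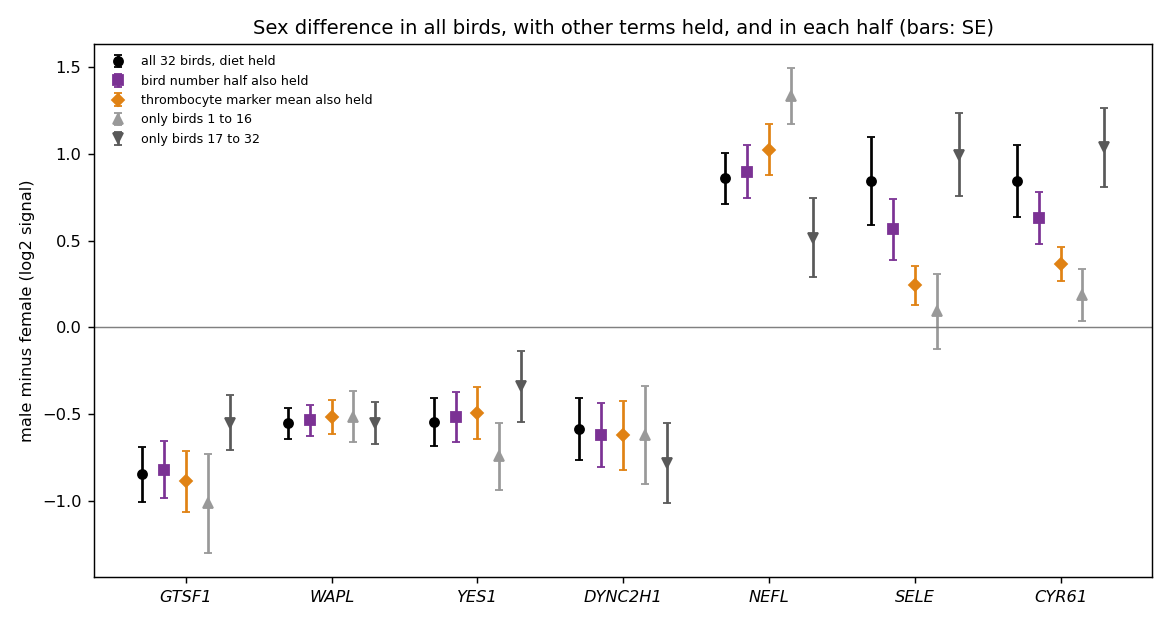
Points give the male minus female difference in log2 signal (vertical axis) of each gene (horizontal axis) in all 32 birds, with the split of bird numbers or the thrombocyte marker mean also held, and within birds 1 to 16 and birds 17 to 32; bars are SE. SELE runs from 0.09 to 0.99 and CYR61 from 0.19 to 1.04, while WAPL stays between -0.51 and -0.55.

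Genes of the members' pathways were called for sex at nearly the same share as all probe sets. Of 112 measured genes in 7 pathway lists, from which the members were left out, 6 were called in limma, or 5.36%, beside 5.35% of all probe sets. The 5.35% includes probe sets on Z and W, and of the 6 called genes IFT74 and LMNB1 lie on Z. Counts for autosomal probe sets are given with the neighbours below. The 7 lists were drawn up with earlier results of these data known, so they describe the pathways and are no independent evidence.

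For GTSF1, 14 of 23 listed piRNA pathway genes were measured, with a median difference of -0.04. TDRD5, a Tudor domain protein of mouse male germ cells, was lower in males by -0.54 ± 0.16 (SE, adjusted p 0.035), at the low mean signal of 3.26, and it lost its call in 12 of 40 alternative settings. TDRD1, of the same family, was at -0.12 ± 0.07 with an adjusted p of 0.371, and only 3 of the 14 probe sets were brighter than the median probe set.

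For WAPL, 14 of 24 cohesin genes were measured, with a median of 0.01. ESPL1, the separase that cuts cohesin, was the 1 gene called, higher in males by 0.18 ± 0.05 (SE, adjusted p 0.0179). RAD21, a cohesin ring subunit, was at 0.08 with an adjusted p of 0.225. In the direction of WAPL, CTCF was at -0.12 ± 0.04 (SE, limma adjusted p 0.0615) and STAG1 at -0.54 ± 0.25 (SE, limma adjusted p 0.267). Of the 14 genes 7 had a positive and 7 a negative difference.

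For YES1, none of 10 measured Src family kinases and regulators was called, and the median was 0.09. CBLB, a ubiquitin ligase that restrains kinase signals, was at 0.23 ± 0.09 (SE, adjusted p 0.17), and the adaptor SLA at 0.72 ± 0.43 (SE, adjusted p 0.429). The kinases FYN at 0.18 and SRC at -0.09 had adjusted p of 0.47 and 0.604.

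For DYNC2H1, 30 of 48 genes of dynein-2 and intraflagellar transport were measured, with a median of 0.00. DYNLT3, a dynein light chain on chromosome 1, was lower in males by -0.52 ± 0.11 (SE, adjusted p 0.00151), in the direction of DYNC2H1. IFT74, a subunit of the transport trains, was higher by 0.62 ± 0.08 (SE, adjusted p 4.48e-07), and it lies on Z. The other dynein-2 chains DYNC2LI1, WDR60 and WDR34 were at 0.02, 0.02 and 0.04, with adjusted p of 0.898, 0.946 and 0.916.

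For NEFL, 11 of 23 intermediate filament genes were measured, with a median of -0.06. The 1 called was LMNB1, the nuclear lamin B1, higher in males by 0.36 ± 0.09 (SE, adjusted p 0.00909), and it too lies on Z. NEFM, the medium chain that assembles with NEFL, was at -0.14 ± 0.07, opposite in sign to NEFL, with an adjusted p of 0.371.

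For SELE, none of 13 measured selectins, ligands and endothelial markers was called, and the median was -0.04. PODXL, a sialomucin, was at 0.56 ± 0.20 (SE, adjusted p 0.103). SELPLG, a selectin ligand, was at -0.15 ± 0.06 (SE, limma adjusted p 0.184), opposite in sign to SELE. SELP, the selectin of platelets and endothelium, was at 0.22 ± 0.10 (SE, adjusted p 0.249). Of the 13 genes 4 had a positive and 9 a negative difference. The endothelial genes VWF and KDR had mean signals of 2.76 and 4.77, and 5 of the 13 probe sets were brighter than the median probe set.

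For CYR61, 20 of 40 genes of the CCN family and the immediate early response were measured, with a median of -0.03. EGR1, an immediate early transcription factor, was higher in males by 0.32 ± 0.08 (SE, adjusted p 0.00778). CCN2, the close relative of CYR61, was at -0.19 ± 0.08 with an adjusted p of 0.244, and the immediate early genes FOS at -0.07 and JUN at 0.09 were not called either. In the list of 13 fibroblast and vessel wall markers, 0 were called and 2 were brighter than the median probe set.

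Among 71 measured markers of blood and vessel wall cell types, 5 were called for sex, or 7.04%, beside 5.35% of all probe sets. That 5.35% includes probe sets on Z and W. Of these 5 markers, 4 were higher and 1 lower in males. Besides ITGB3 and GP1BB these were CXCR1 at 0.28 (adjusted p 0.0312) and AVD, on Z, at 0.60 (adjusted p 0.0405) among 8 heterophil markers, all of positive sign, and the red cell transcription factor TAL1 at -0.39 (adjusted p 0.0278). Of the 13 measured red cell markers 7 had a positive and 6 a negative difference, with a median of 0.00. None of the 5 monocyte, 13 T cell and 8 B cell markers was called in limma.

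The genes next to the 7 members on their chromosomes were compared too. Of the 42 genes nearest to them, 3 on each side, 15 were measured, and none was called for sex, with differences from -0.19 to 0.17. Among the 3 nearest measured genes on each side, again 42, 2 were called, or 4.76%. They were MSANTD4 at -0.24 ± 0.06 (SE, limma adjusted p 0.0126) and the collagenase MMP13 at -0.24 ± 0.07 (SE, limma adjusted p 0.0208). Both are neighbours of DYNC2H1. The 5.35% of all probe sets called for sex includes those on Z and W, whereas these neighbours are autosomal. Of 9796 autosomal probe sets with a single symbol, 178 were called higher and 110 lower in males, with the same sign on both diets.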

How the data were processed

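Per the labels' protocols, RNA was column-purified and labelled with the GeneChip WT PLUS kit. Per the submitters' processing notes, GCOS 1.1.1 and RMA were used, and the deposited table holds the authors' log2 signal per probe set for 32 arrays, with array medians from 6.51 to 6.60. Of 20804 rows, 2910 were blank on every array, and 824 of the rest repeated another row. Of the 17894 tested, 10264 had a single gene symbol from the platform annotation. Chromosomes and neighbours came from a RefSeq gene table (assembly GRCg7b), in which 9770 of these matched by gene ID, 474 by symbol, 15 by older symbol and 5 not at all. The probe sets' own build was not stated in the sources read, so no coordinates are printed.

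Differences were fitted with limma 3.58.1 in R 4.3.3 (lmFit, eBayes) on all arrays, with two-sided p adjusted by Benjamini-Hochberg across the 17894 probe sets and calls at an adjusted p under 0.05. The models were tested on simulated data in which probe sets varied independently and bird number had no part. That test does not cover genes that move together between birds, such as SELE and CYR61. The 7 genes and all lists were chosen with earlier results of these data known. Beside the members, the text names the probe sets around them in rank, the 3 most alike genes of each, the called genes of each list or those with the smallest p, called neighbours and HINTW. Some list genes (RAD21, FYN, SRC, the dynein-2 chains, NEFM, SELP, VWF, KDR, CCN2, FOS, JUN, THBS1, GFI1B and other thrombocyte markers) were named for their role after values were seen. CTCF and STAG1 were named for the sign and size of their differences. The T cell, monocyte and B cell markers with the lowest and highest r with SELE were named for that r. Arrays hold no counts, and precision depends on the number of birds, 8 per diet and sex. Alternatives included bird number, array weights, other scaling, a filter on dim probe sets and leaving out each bird. No chicken sequence was used.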

Additional observations from a re-analysis of the deposited data

How the results depend on the processing

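Alternatives were bird number or its split at 16 as a term, array weights, a robust variance trend, centring or quantile scaling of arrays, repeated rows left out, only the 16 arrays compared, a filter on dim probe sets and leaving out each bird. No sex difference of a member turned in direction. The genes were chosen by that difference in these same arrays, so a turn was unlikely from the start. Leaving out 1 bird gave GTSF1 -0.90 to -0.77, WAPL -0.59 to -0.52, YES1 -0.61 to -0.49, DYNC2H1 -0.65 to -0.49, NEFL 0.81 to 0.92, SELE 0.76 to 0.96 and CYR61 0.77 to 0.93. Within birds 1 to 16, chosen after seeing the data, NEFL was at 1.33 and CYR61 at 0.19. Of 1150 values for diet or its interaction with sex under the alternatives, 0 were called in limma, the lowest adjusted p was 0.21, and 35 had the other sign.

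The 5 marker genes called for sex became 3 with array weights, 1 with the block of bird numbers, 2 with the thrombocyte covariate, and 1 to 6 without 1 bird: 1 without bird 1, 11, 15 or 19, 2 without bird 7, 8, 10, 12, 16, 20, 27 or 29, and 3 without bird 4, 9, 22, 23, 24 or 32. The cause was not tested. The 6 pathway genes became 5 to 7 without 1 bird. The neighbouring genes called went from 0 to 2 with the nearest measured genes, a larger set. Of 41 alternatives, ITGB3 lost its call in 22, GP1BB in 21, AVD in 19, CXCR1 in 10 and LMNB1 in 1, and TDRD5 lost its call in 12 of 40. The filter at the median signal left no value for GTSF1, YES1 and DYNC2H1, and no member had a second probe set to try. No paired analysis was possible because each bird number occurs once. No member had a bird far enough from its group to pass Dixon's test, among 28 groups of 8.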
